A study of Homo sapiens with 36 samples.

Results

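MDA435 and MDA231 cells extend pseudopods through the pores of a filter, and the comparison described here asks whether the RNA content of pseudopods (PS) relative to cell bodies (CB) differs between these lines. The measure is the PS minus CB difference in MDA435 minus the same difference in MDA231, called the line difference below. It was taken for genes whose mean cell body intensity was at least 100 in both lines, which left 8226 members of 19775 genes with a symbol on the array. Of the 14128 genes tested in the 2 lines, 8995 reached 100 in MDA435 cell bodies and 9021 did so in MDA231 cell bodies. All 8226 members were among the genes tested. Nearest to the minimum, CDK2AP2 met it at 100.0 in its lower cell body mean, and MAST2 missed it at 99.9.

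The study profiled PS and CB fractions of 6 human cancer cell lines on 36 HG-U133 Plus 2.0 arrays, with 3 arrays a group. The 4 groups used here are MDA435 pseudopods, MDA435 cell bodies, MDA231 pseudopods and MDA231 cell bodies, 12 arrays in all. Cells of both lines grew in RPMI-1640 with fetal bovine serum, were plated on porous filters for 24 hours, and were scraped separately from the lower side (pseudopods) and the upper side (cell bodies); the labels name no treatment or modification of either line. MDA231 is a breast carcinoma line. MDA435 was long used as a breast cancer line and is known for melanocytic gene expression. The labels do not say whether the 3 replicates of a group came from separate cultures, so p-values measure the spread between these samples, which may be technical.

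Pseudopods are actin-rich protrusions that carry mitochondria, ribosomes and RNA but little of the rough endoplasmic reticulum (ER) and no nucleus. As background, messenger RNAs of secreted and membrane proteins are translated at the ER membrane, whereas messenger RNAs of cytosolic and many mitochondrial proteins are translated on free ribosomes, and a small set of RNAs, RAB13 and NET1 among them, is carried into protrusions along microtubules. A PS minus CB difference therefore describes where the RNA of a gene lies in a cell as well as how pure the scraped fraction was.

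The deposited intensities are scaled to a common mean in each array, so a change is relative to the other RNAs of that array, and fewer cells of a type cannot be told apart from less RNA per cell. Changes are given on the scale log2(intensity + 16), which understates changes of dim genes. The lineage markers SOX10 and S100B, which did not meet the member rule, separated the lines. SOX10, a transcription factor of neural crest cells, stood at 1087, 1267 and 2002 intensity units in MDA435 pseudopods, against 2450.1, 1121 and 884 in MDA435 cell bodies, and 12.4, 16 and 28.7 in MDA231 pseudopods, against 29.5, 22 and 11.4 in MDA231 cell bodies. S100B, a calcium-binding protein of glia and melanocytes, was at 1723, 3325 and 2980.3 in MDA435 pseudopods and 2607, 2108 and 1668 in MDA435 cell bodies, and reached at most 2.7 in the 6 MDA231 arrays. The summed intensity of 16 measured melanocytic markers ran from 8451 to 17697 in MDA435 arrays and from 1606 to 2457 in MDA231 arrays, and that of 7 blood cell markers reached at most 218 in MDA435 and 1480 in MDA231. Of the luminal breast and prostate markers, 9 measured genes summed to at most 878 in MDA435 and 1585 in MDA231.

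Arrays of 1 group were not alike. CDH1, which encodes the epithelial adhesion protein E-cadherin, was at 2073, 922 and 33.2 in MDA435 pseudopod replicates 1, 2 and 3, and at 32.8, 1044 and 2463 in the MDA435 cell body replicates. In MDA231 it was at 4.5, 13.7 and 1299 in pseudopods and 8.2, 1778 and 2.2 in cell bodies. CDH1 was therefore low in 1 MDA435 array of each fraction (pseudopod replicate 3, cell body replicate 1) and high in 1 MDA231 array of each fraction (pseudopod replicate 3, cell body replicate 2). The first component of the deviations from the group means held 60.5% of the variance that the groups leave, and it followed CDH1 over the 12 arrays (r = 0.979, as a description). In 4 of the 6 pseudopod arrays these deviations correlated best with a cell body array of another replicate number (r from 0.791 to 0.861), in MDA435 pseudopod replicate 2 and MDA231 pseudopod replicate 1 with that of their own. Whether cultures or labels of these arrays were mixed was not tested. Results that rest on these arrays are given with and without them.

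The pseudopod changes of the 2 lines were alike in pattern over the members. Across the 8226 members Pearson's r between the MDA435 change and the MDA231 change was 0.884 and Spearman's rho was 0.809, given as a description, since genes are not replicates and both changes come from the same probe sets. The sign of the change was the same in both lines for 86.0% of members. The line difference was positive, which is higher in MDA435, for 49.1% of members and 54.4% of all tested genes, and negative for 50.9% of members and 45.6% of all tested genes. Median changes were 0.13 in MDA435 and 0.12 in MDA231, and the median line difference was -0.0039. Pseudopod arrays lay wholly above the cell body arrays for 1483 members in MDA435 and 1189 in MDA231, and wholly below them for 1233 in MDA435 and 1054 in MDA231. Of the members these were 18% higher and 15% lower in MDA435, and 14.5% higher and 12.8% lower in MDA231. Over all tested genes these shares were 13% higher and 13.1% lower in MDA435, and 9.77% higher and 12.4% lower in MDA231. Both lines together gave 533 members without overlap that were higher in pseudopods (6.48%, against 4.15% of all tested genes) and 794 that were lower (9.65%, against 6.99%). Exactly 1 member, FBXW7 (0.0122%, against 0.0849% of all tested genes), lay apart in opposite directions.

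**Figure D1:**
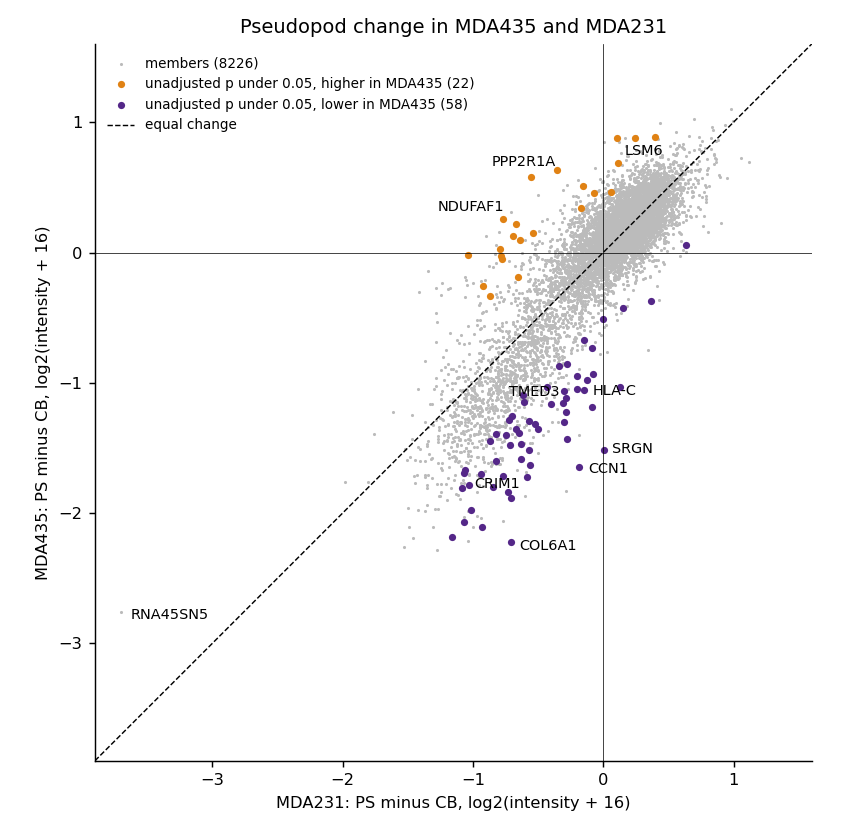
Pseudopod minus cell body change of the 8226 members on the log2(intensity + 16) scale, with MDA435 on the vertical and MDA231 on the horizontal axis; each point is 1 gene and the dashed line marks equal change. Points with an unadjusted p under 0.05 for the line difference are coloured, 22 above the line (orange) and 58 below it (purple); genes low in pseudopods mostly lie below the line, which is a larger change in MDA435.

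No member passed the test of the line difference. In limma's fit of 4 group means, 0 of 8226 members were higher and 0 were lower in MDA435 at a Benjamini-Hochberg adjusted p under 0.05 (background over all tested genes 0% in each direction), and the lowest adjusted p among members was 0.682. At an unadjusted p under 0.05 there were 80 members (0.973%, against 2.29% of all tested genes), of which 22 were higher in MDA435 (0.267%, against 0.92%) and 58 lower (0.705%, against 1.37%). All 3 shares lie below those of all tested genes. This count of 80 fell to 50 without MDA435 pseudopod replicate 2, and was 146 without MDA435 pseudopod replicate 1, 144 without MDA435 pseudopod replicate 3 and 146 without MDA231 cell body replicate 1, with 0 members called each time. Over all tested genes 8 were called lower without MDA435 pseudopod replicate 3. With CDH1 as a covariate in each line, an alternative chosen after seeing the data, 291 members had an unadjusted p under 0.05 and 0 were called. The same fit gave 866 of the 14128 tested genes an unadjusted p under 0.05, and called 2 higher and 29 lower.

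The precision of the line difference varied between members. The half-width of a member's 95% interval for the line difference had a median of 0.650 on the log2 scale (quartiles 0.528 and 0.848). For 5756 members (70.0%) the whole interval lay within 2-fold in either direction, and for 15.4% it lay within 1.5-fold. Estimated differences of 2-fold or more were seen in 35 members, 9 higher and 26 lower in MDA435, against 201 of the 14128 tested genes, 67 higher and 134 lower.

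Among RNAs that were low in pseudopods, the estimated change was deeper in MDA435. The SD over members of the change was 0.513 in MDA435 and 0.419 in MDA231. An estimated 2-fold or deeper reduction in pseudopods was seen for 631 members in MDA435 and 295 in MDA231, whereas a 2-fold increase was seen for 3 in MDA435 and 2 in MDA231. For the 471 members whose change averaged over both lines was -1 or lower, the median line difference was -0.35 and 88.1% were lower in MDA435, against 50.9% of all members. These members were picked by the same 2 changes, so the share restates the larger SD in MDA435 and is no separate result. In the 42 members with an average change of -1.5 or lower the median changes were -1.87 in MDA435 and -1.35 in MDA231. In the 296 members with an average change above 0.5 they were 0.60 in MDA435 and 0.55 in MDA231, and 38.2% were lower in MDA435.

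This gap was smaller without the MDA231 arrays with high CDH1. The mean log2(intensity + 16) of the 471 members was 7.97, 7.66 and 7.98 in MDA435 pseudopods, against 9.34, 9.26 and 9.22 in MDA435 cell bodies, and 8.08, 7.93 and 8.18 in MDA231 pseudopods, against 9.38, 8.82 and 9.12 in MDA231 cell bodies. MDA231 pseudopod replicate 3 was the highest pseudopod array of the 2 lines and MDA231 cell body replicate 2 the lowest cell body array. Without both of them the SDs of the changes were 0.515 in MDA435 and 0.500 in MDA231, 572 members had an average change of -1 or lower, and their median line difference was -0.14, with 66.4% lower in MDA435. Without MDA231 pseudopod replicate 3 alone the median was -0.20 (65.8% lower), and without MDA231 cell body replicate 2 alone -0.21 (75.05% lower). Other single arrays left out gave medians from -0.46 to -0.26. Scaling the arrays to equal medians gave 95.6% lower, and put the median line difference of all 8226 members at -0.082.

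The members with the largest moderated t towards lower in MDA435 were SRGN, HLA-C, TMED3, CCN1, CRIM1 and FBXO34. None passed the test. SRGN, the core protein of a secretory granule proteoglycan, had 118, 102 and 189 intensity units in MDA435 pseudopods, against 406, 509.6 and 327 in MDA435 cell bodies, and 2829, 3122 and 2648 in MDA231 pseudopods, against 2522, 2998 and 3061 in MDA231 cell bodies. Its MDA435 fractions lay far apart and its MDA231 fractions overlapped. The changes were -1.52 in MDA435 and 0.005 in MDA231, a line difference of -1.52 ± 0.31 (SE, n = 3 arrays a group; 95% interval -2.21 to -0.83; limma, adjusted p = 0.682). With array weights the difference was -1.79 (limma, adjusted p = 0.0213), and over all alternatives the adjusted p ran from 0.0213 to 1. The weights lean on few arrays. In MDA231 cell bodies replicate 3 had a weight of 5.42, against 0.70 in replicate 1 and 0.37 in replicate 2. In MDA231 pseudopods replicate 2 had 2.935, against 1.11 in replicate 1 and 0.33 in replicate 3. A second SRGN probe set, dimmer in every group, averaged 4.7 in MDA435 pseudopods and 26.5 in MDA435 cell bodies, and 389.9 in MDA231 pseudopods and 803 in MDA231 cell bodies. The first of these means lies below 25.6, the median of all probe sets over the 12 arrays and the limit under which a value counted as dim, so no line difference is drawn from that probe set. The MDA231 means of that probe set are not dim, and they were lower in pseudopods than in cell bodies. The level MDA231 reading of SRGN therefore rests on the main probe set alone. Other probe sets are set beside some results below, and only where all 4 of their group means reach 25.6. This rule was chosen after their values were seen. A gene given without other probe sets may still have them.

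HLA-C, a heavy chain of HLA class I, stood at 1357, 1300.5 and 1779 in MDA435 pseudopods, against 3174, 2748 and 3299 in MDA435 cell bodies, and 2770.4, 2838 and 2843 in MDA231 pseudopods, against 3068, 2976 and 3314 in MDA231 cell bodies. Pseudopod arrays were below cell body arrays in both lines, with changes of -1.06 in MDA435 and -0.14 in MDA231, a line difference of -0.91 ± 0.21 (SE; adjusted p = 0.693, limma). Its 3 other probe sets gave line differences from -1.17 to -0.15, the one nearest to 0 on the dimmest probe set. On that dimmest probe set MDA231 was also clearly lower in pseudopods, at 640 against 1253 in cell bodies. The brighter ones were near level in MDA231, at 2777 in pseudopods against 2776 in cell bodies and 2392 against 2652. The small MDA231 change of HLA-C thus held on the bright probe sets only. HLA genes resemble each other, so their probe sets may share signal. TMED3, a p24 cargo receptor between ER and Golgi, was at 651, 726 and 655 in MDA435 pseudopods, against 1556, 1339 and 1408 in MDA435 cell bodies, and 429.8, 437 and 386 in MDA231 pseudopods, against 517, 523 and 515 in MDA231 cell bodies. All 4 groups of TMED3 lay apart, and the changes were -1.06 in MDA435 and -0.30 in MDA231 (line difference -0.76 ± 0.18, SE; adjusted p = 0.693, limma). A second probe set, at most 46.1 in any group mean, gave -0.31.

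CCN1, a secreted matricellular protein, had 224, 210.1 and 145 intensity units in MDA435 pseudopods, against 416, 962 and 621 in MDA435 cell bodies, a change of -1.65 with no overlap. In MDA231 it had 2594, 2904 and 2142 in pseudopods and 2728, 2513 and 3482 in cell bodies, which overlapped (change -0.19). The line difference was -1.46 ± 0.40 (SE), and a dimmer second probe set gave -0.25. That probe set averaged 534 in MDA231 pseudopods and 862 in MDA231 cell bodies, a deeper fall than on the main one. CRIM1, a membrane protein that binds bone morphogenetic proteins, was at 217, 289 and 412 in MDA435 pseudopods, against 1111, 976 and 965 in MDA435 cell bodies, and 1247, 1427 and 1085 in MDA231 pseudopods, against 1829, 1634 and 2215 in MDA231 cell bodies. CRIM1 was lower in pseudopods of both lines, with changes of -1.73 in MDA435 and -0.59 in MDA231, and it varied inversely with CDH1 between replicates (r = -0.785 over 12 arrays). Its 2 other probe sets gave line differences of -0.57 and -0.56, against -1.14 on the main one. FBXO34, an F-box protein, had 311, 235 and 266 in MDA435 pseudopods, against 564, 492 and 528 in MDA435 cell bodies, while its MDA231 fractions overlapped (changes -0.93 in MDA435 and -0.08 in MDA231). For CCN1 and CRIM1 the adjusted p was 0.962 and for FBXO34 0.9999 (limma).

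**Figure D2:**
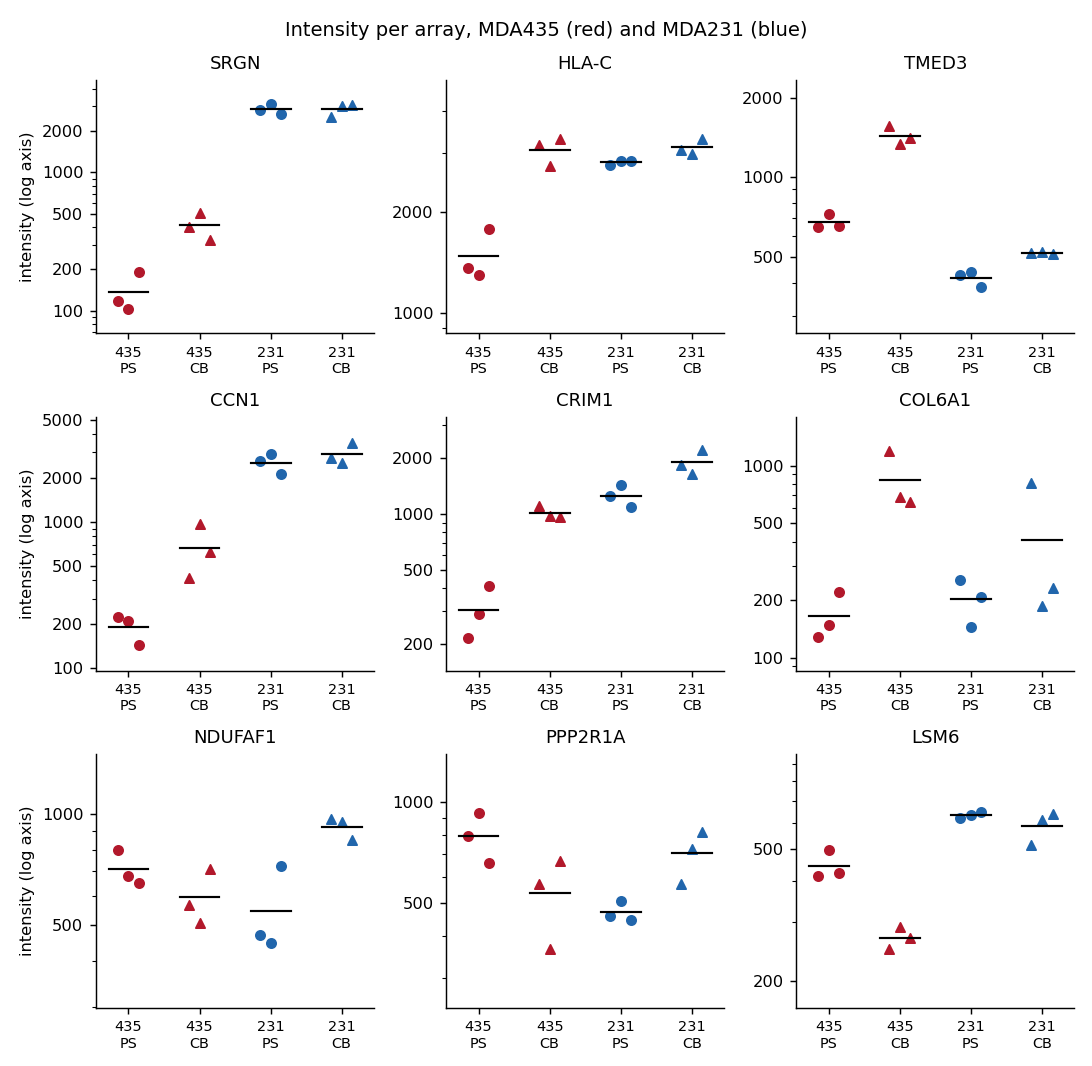
Intensity of 9 members in each array on a log axis, with MDA435 in red, MDA231 in blue, circles for pseudopods (PS), triangles for cell bodies (CB) and a bar for the mean of 3 arrays. SRGN, CCN1 and HLA-C are far lower in MDA435 pseudopods than in MDA435 cell bodies while the MDA231 fractions lie close together between 2142 and 3482, and NDUFAF1 and PPP2R1A are lower in MDA231 pseudopods than in MDA231 cell bodies.

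SRGN, HLA-C and CCN1 were among the brighter members in MDA231. The highest intensity of any probe set was between 3884 and 5589 over the 12 arrays. Of the 571 members with an MDA231 cell body mean of 2000 or more, 77.1% had a lower change in MDA435 (median line difference -0.090), and they held 17 of the 58 lower members with an unadjusted p under 0.05. Of the 1448 members between 100 and 200 in MDA231 cell bodies 45.7% were lower in MDA435 (median 0.020). The part of brightness in these differences was not tested.

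Towards higher in MDA435 the leading members were NDUFAF1, PPP2R1A, SYMPK, ELOF1, LSM6 and C5orf15. NDUFAF1, an assembly factor of respiratory complex I, was at 801, 681 and 651 in MDA435 pseudopods, against 567, 507 and 713 in MDA435 cell bodies, and 472, 449 and 725 in MDA231 pseudopods, against 971, 952 and 854 in MDA231 cell bodies. The MDA435 fractions overlapped, whereas all MDA231 pseudopod arrays lay below the MDA231 cell body arrays. The changes were 0.26 in MDA435 and -0.77 in MDA231, and the line difference was 1.03 ± 0.28 (SE; 95% interval 0.40 to 1.65; limma, adjusted p = 0.983). It passed with the spread taken from all 36 arrays (limma, adjusted p = 0.0284) and with array weights (adjusted p = 0.0498), and over all alternatives the adjusted p ran up to 1. ELOF1, a transcription elongation factor, had 1346, 1699 and 1534 in MDA435 pseudopods, against 1118, 961 and 1118 in MDA435 cell bodies, and 788, 694 and 938 in MDA231 pseudopods, against 829, 923 and 935 in MDA231 cell bodies. ELOF1 was higher in all MDA435 pseudopod arrays and overlapped in MDA231 (line difference 0.67 ± 0.22, SE). Array weights alone brought it to an adjusted p of 0.0498 in limma, within a range of 0.0498 to 1.

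PPP2R1A, the scaffold subunit of protein phosphatase 2A, was at 794, 928 and 659 in MDA435 pseudopods, against 571, 366 and 669 in MDA435 cell bodies, and 459, 506 and 445 in MDA231 pseudopods, against 570.5, 726 and 818 in MDA231 cell bodies. Its fractions overlapped in MDA435 and lay apart in MDA231, with changes of 0.58 in MDA435 and -0.56 in MDA231 (line difference 1.14 ± 0.32, SE). LSM6, a subunit of the ring that binds U6 RNA and decaying messenger RNA, had 415, 494 and 422 in MDA435 pseudopods, against 248, 289.5 and 268 in MDA435 cell bodies, and 620.2, 633 and 645 in MDA231 pseudopods, against 513, 609 and 636 in MDA231 cell bodies. LSM6 was higher in MDA435 pseudopods without overlap (0.69) and overlapped in MDA231 (0.11). SYMPK, a scaffold of messenger RNA 3-prime end processing, and C5orf15 lay apart in MDA231 alone. SYMPK overlapped in MDA435 and was lower in MDA231 pseudopods (values 93.1, 97.3 and 116 in pseudopods, against 191, 216 and 214 in cell bodies), with a line difference of 0.66. A second SYMPK probe set gave -0.12. C5orf15 was at 1326, 1216 and 1500.1 in MDA231 pseudopods, against 2271, 2194 and 2499 in MDA231 cell bodies, and its MDA435 fractions overlapped (line difference 0.75). The adjusted p of these 4 genes was 0.9999 (limma).

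FBXW7, which recognises substrates for a ubiquitin ligase, was the member whose fractions lay apart in opposite directions. It had 192, 189 and 189 intensity units in MDA435 pseudopods, against 160.2, 185 and 188 in MDA435 cell bodies, and 300.3, 278 and 273 in MDA231 pseudopods, against 337, 322 and 336 in MDA231 cell bodies. Pseudopods were higher in MDA435 by 0.093, where the lowest pseudopod array (189) and the highest cell body array (188) nearly met, and lower in MDA231 (change -0.22). The line difference was 0.31 ± 0.17 (SE; 95% interval -0.075 to 0.69), the unadjusted p was 0.105 and the adjusted p 0.9999 in limma. Of its other probe sets 2 were not dim and gave line differences of -0.41 and 0.044, the first of the opposite sign.

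Genes of the extracellular matrix and its proteases had the largest median line difference of the 30 pathway lists. All 25 members had estimated changes below 0 in MDA435 and in MDA231, with medians of -1.59 in MDA435 and -0.82 in MDA231. The change was lower in MDA435 for 22 of 25 (median line difference -0.57), against 50.9% of all members. It was also lower for 88.1% of the 471 members with an average change of -1 or lower. Between -1 and -0.5 the share was 77.7% of 761 members. The matrix list and the receptor, ER and lysosome lists below are to be read beside these shares. No matrix member was called. At an unadjusted p under 0.05 there were 7 members, COL6A1, COL8A1, COL13A1, THBS1, PLAT and CCN1 lower and SERPINE2 higher in MDA435. The share of all members was 0.973%, taken over members of any change. Most members that were lower in MDA435 at that p had an average change of -0.5 or lower. The 0.973% is therefore too low a background for a list whose members were all lower in pseudopods. COL6A1, a chain of collagen VI, was at 128, 147 and 221 intensity units in MDA435 pseudopods, against 1194, 689 and 644 in MDA435 cell bodies, and 252, 144 and 207 in MDA231 pseudopods, against 814, 186 and 231.1 in MDA231 cell bodies. MDA231 cell body replicate 1 stood far above the other 2 arrays of its group. The COL6A1 line difference of -1.52 ± 0.66 (SE) was -2.15 to -1.13 with 1 array left out. THBS1, the secreted protein thrombospondin 1, had 212, 405 and 414 in MDA435 pseudopods, against 1119, 1586 and 1364 in MDA435 cell bodies, and 612, 871 and 647 in MDA231 pseudopods, against 1354, 1123 and 1946 in MDA231 cell bodies. Both lines were lower in pseudopods without overlap, with changes of -1.98 in MDA435 and -1.02 in MDA231, and 4 of its other probe sets gave line differences from -0.98 to -0.082.

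COL8A1, a chain of collagen VIII, was at 202, 446 and 578 in MDA435 pseudopods, against 1712, 1683 and 1477 in MDA435 cell bodies, and 791, 772 and 684 in MDA231 pseudopods, against 1715, 1195 and 1949 in MDA231 cell bodies. PLAT, the tissue plasminogen activator, had changes of -1.89 in MDA435 and -0.71 in MDA231 and varied inversely with CDH1 (r = -0.919). PLAT was at 2662, 1258 and 2593 in MDA231 cell bodies, so the array with high CDH1 was the lowest. COL13A1, a transmembrane collagen, was bright in MDA231 cell bodies (2772, 1772 and 2556) and dim in MDA435 cell bodies (106, 180.4 and 115). Its line difference was -1.06, and its 2 other probe sets, at most 24.0 in either MDA435 fraction, were too dim to compare. SERPINE2, a secreted inhibitor of thrombin and urokinase, went the other way, with 2453, 3294 and 3200.1 in MDA435 pseudopods, against 3906, 3222 and 4126 in MDA435 cell bodies, and 561, 527 and 544 in MDA231 pseudopods, against 992, 953 and 1080.2 in MDA231 cell bodies. Its fractions overlapped in MDA435 and lay apart in MDA231 (line difference 0.54 ± 0.22, SE).

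FN1, fibronectin, had the largest difference among the mesenchymal markers and was at 195, 358 and 724 in MDA435 pseudopods, against 2311, 1614 and 1518 in MDA435 cell bodies, and 678, 459 and 336 in MDA231 pseudopods, against 1579, 578 and 1037 in MDA231 cell bodies. The 2 arrays of MDA231 with high CDH1 held the lowest FN1 of their fractions, and FN1 varied inversely with CDH1 (r = -0.862). The median line difference of the matrix list was -0.35 without the MDA231 arrays with high CDH1, which is the nearest to 0 that any alternative gave (range -0.73 to -0.35). With 1 array left out it was nearest to 0 without MDA231 cell body replicate 2 (-0.35) and farthest without MDA435 pseudopod replicate 3 (-0.73). The mean log2 level of the list in MDA231 cell bodies was 10.16, 9.43 and 9.87, lowest in replicate 2, while in MDA435 cell bodies it was 9.82, 9.69 and 9.64. Pseudopod arrays were at 8.16, 8.24 and 8.51 in MDA435 and 9.18, 8.95 and 8.92 in MDA231.

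Surface receptors followed with the next largest medians. For integrins and other membrane adhesion receptors 25 of 29 members were lower in MDA435, with median changes of -1.13 in MDA435 and -0.75 in MDA231. ITGB1, the beta chain that most integrins share, was at 2154, 1959 and 2397 in MDA435 pseudopods, against 3130.0, 2693 and 3480.3 in MDA435 cell bodies, and 2965, 3274 and 2888 in MDA231 pseudopods, against 2797, 3050.5 and 3302 in MDA231 cell bodies. ITGB1 lay lower without overlap in MDA435 pseudopods and overlapped in MDA231, a line difference of -0.51 ± 0.21 (SE; unadjusted p = 0.0348, adjusted p = 0.9999, limma). Its other probe sets that were not dim gave line differences of -0.92 and -0.96. Their MDA231 means were lower in pseudopods, at 696 against 1506 in cell bodies and 1284 against 2377. Among probe sets that were not dim, only the main one gave a level MDA231 reading of ITGB1. MCAM, a melanoma adhesion molecule, had 136, 179 and 307 in MDA435 pseudopods, against 986, 787 and 524 in MDA435 cell bodies, and 196, 182 and 174 in MDA231 pseudopods, against 483, 234 and 279 in MDA231 cell bodies, and its line difference was -1.10. ICAM1, a ligand of leukocyte integrins, had the largest difference of the list (-1.29 ± 0.77, SE), with 66.4, 82.4 and 149 in MDA435 pseudopods, against 630.3, 405 and 338 in MDA435 cell bodies, and 58.3, 35.9 and 165 in MDA231 pseudopods, against 181, 243 and 51.6 in MDA231 cell bodies. The MDA231 fractions of ICAM1 overlapped, and its values followed CDH1 in MDA231 (r = 0.804) and went against it in MDA435 (r = -0.993).

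For growth factor and cytokine receptors 35 of 40 members were lower in MDA435, with median changes of -1.16 in MDA435 and -0.89 in MDA231. ERBB3, a neuregulin receptor that melanocytic cells also carry, was at 275, 169 and 407 in MDA435 pseudopods, against 1361, 997 and 1107 in MDA435 cell bodies, and 38.9, 38.4 and 113 in MDA231 pseudopods, against 96.5, 188 and 102 in MDA231 cell bodies. ERBB3 was much brighter in MDA435, its MDA231 fractions overlapped, and the line difference was -1.10 ± 0.55 (SE). IL6ST, the shared chain of interleukin-6 family receptors, was at 961, 1001 and 1233 in MDA435 pseudopods, against 2022, 1849.7 and 1912 in MDA435 cell bodies, and 2371, 2166.5 and 2213 in MDA231 pseudopods, against 2586, 2568 and 3073 in MDA231 cell bodies. It lay lower without overlap in pseudopods of both lines, with changes of -0.85 in MDA435 and -0.28 in MDA231. Its line difference was -0.57, and 3 dimmer probe sets gave -0.43 to 0.0077. TNFRSF10B, a death receptor for TRAIL, had changes of -1.35 in MDA435 and -0.67 in MDA231, again with no overlap in either line. Its line difference of -0.69 stood beside -0.16 and 0.05 on 2 dimmer probe sets. Median line differences of -0.47 for the adhesion list and -0.39 for the receptor list became -0.35 and -0.22 without the MDA231 arrays with high CDH1. Without MDA231 cell body replicate 2 alone they were -0.30 and -0.22, and without MDA435 pseudopod replicate 2 the receptor list was at -0.23. In both lists 0 members were called.

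**Figure D3:**
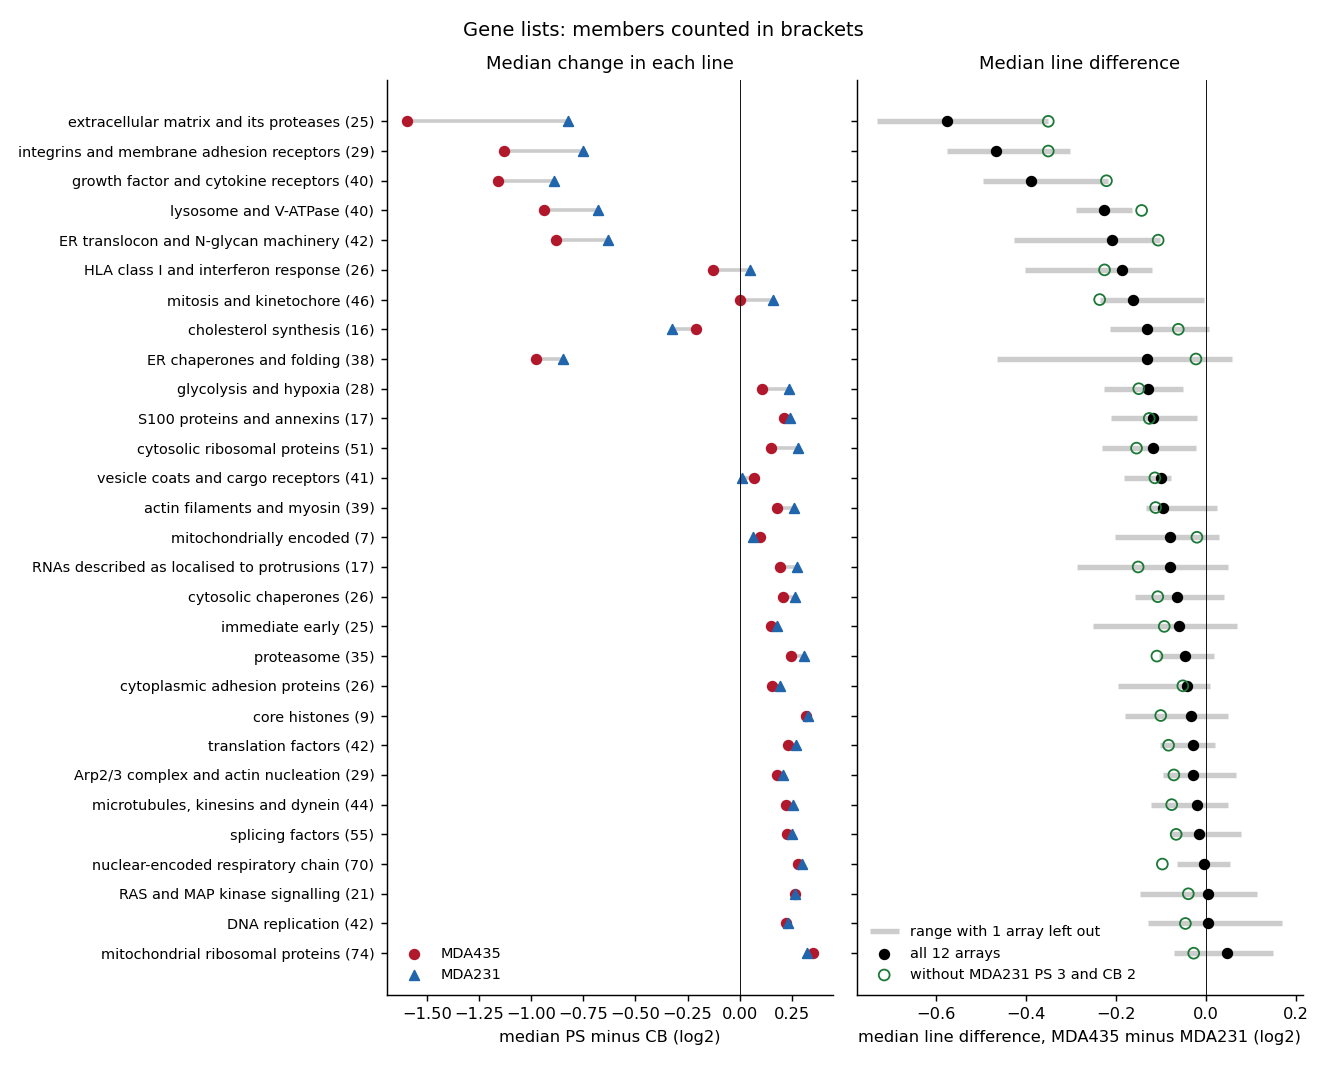
Median over the members of 29 pathway lists, with the number of members in brackets: on the left the pseudopod minus cell body change in MDA435 (red circles) and MDA231 (blue triangles), on the right the line difference with all 12 arrays (black), without MDA231 pseudopod replicate 3 and cell body replicate 2 (green rings), and its range with 1 array left out (grey). Matrix, adhesion receptor and growth factor receptor lists lie lowest, at -0.57, -0.47 and -0.39, and most lists of cytosolic and mitochondrial proteins lie near 0.

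Lists of the ER and of lysosomes had median changes below 0 in both lines, with smaller line differences. Among ER translocon and N-glycan genes, whose products move proteins into the ER and attach sugars, 38 of 42 members were lower in MDA435, with median changes of -0.88 in MDA435 and -0.63 in MDA231. TUSC3, an oligosaccharyltransferase subunit, had the largest difference there and was at 317, 263 and 601 in MDA435 pseudopods, against 1286, 1011 and 877 in MDA435 cell bodies, and 338, 328 and 306 in MDA231 pseudopods, against 695, 296 and 536 in MDA231 cell bodies. TUSC3 overlapped in MDA231 through cell body replicate 2, and its line difference was -0.91 ± 0.47 (SE). ER chaperones had median changes of -0.98 in MDA435 and -0.85 in MDA231, and 28 of 38 were lower in MDA435 (median -0.13). That median was -0.46 without MDA435 pseudopod replicate 1 and 0.058 without MDA231 pseudopod replicate 3. The translocon median of -0.21 was -0.43 and -0.10 without the same arrays.

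SERPINH1, the collagen chaperone of the ER, was at 272, 243 and 339.5 in MDA435 pseudopods, against 1676, 884 and 971 in MDA435 cell bodies, and 282, 224 and 224 in MDA231 pseudopods, against 1010.2, 438 and 599 in MDA231 cell bodies. It was lower in pseudopods of both lines without overlap, with changes of -1.94 in MDA435 and -1.35 in MDA231 (line difference -0.59 ± 0.43, SE; unadjusted p = 0.203, limma). PLOD1, a lysyl hydroxylase of collagen, had changes of -1.79 in MDA435 and -0.92 in MDA231. FKBP9, a prolyl isomerase of the ER, had changes of -1.11 in MDA435 and -0.29 in MDA231, with overlap in MDA231 only (unadjusted p = 0.0208, limma). Lysosomal and V-ATPase genes had median changes of -0.94 in MDA435 and -0.68 in MDA231, with 34 of 40 lower in MDA435. NPC1, the lysosomal cholesterol exporter, was at 188, 151 and 166 in MDA435 pseudopods, against 629.6, 620.4 and 603 in MDA435 cell bodies, and 421, 339 and 394 in MDA231 pseudopods, against 1067, 592 and 803 in MDA231 cell bodies. Its line difference was -0.76 ± 0.28 (SE). Vesicle coats and cargo receptors, the list of TMED3, had median changes near 0 (0.067 in MDA435 and 0.012 in MDA231). Gene by gene, their median line difference was -0.099, with 28 of 41 lower in MDA435. Cholesterol synthesis genes had median changes of -0.21 in MDA435 and -0.33 in MDA231. Their median line difference was nevertheless -0.13, with 11 of 16 lower in MDA435. HSD17B7 had the largest difference of that list and went the other way (0.50 ± 0.34, SE).

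For HLA class I and interferon response genes 22 of 26 members were lower in MDA435, with median changes of -0.13 in MDA435 and 0.048 in MDA231 and a median line difference of -0.19. The members with an unadjusted p under 0.05 were HLA-B, HLA-C, HLA-E and the peptide transporter subunit TAP1, all lower. HLA-B, a classical class I heavy chain, was at 981, 1219.9 and 1632 in MDA435 pseudopods, against 2847, 2538 and 3079 in MDA435 cell bodies, and 2655, 1743 and 2081 in MDA231 pseudopods, against 2774, 2579 and 3106 in MDA231 cell bodies. HLA-B lay apart in MDA435 and overlapped in MDA231 (line difference -0.76 ± 0.30, SE). HLA-E, a non-classical heavy chain read by natural killer cells, was at 546, 704 and 832 in MDA435 pseudopods, against 1833, 1879 and 1505 in MDA435 cell bodies, and 1581, 1598 and 1151 in MDA231 pseudopods, against 2261, 1587 and 2425 in MDA231 cell bodies. HLA-E also overlapped in MDA231, where cell body replicate 2 was the lowest of its fraction (line difference -0.80 ± 0.31, SE). TAP1 had 78.3, 69.7 and 88.3 in MDA435 pseudopods, against 212, 267 and 259 in MDA435 cell bodies, and 253, 250.1 and 253 in MDA231 pseudopods, against 654, 284 and 339.9 in MDA231 cell bodies, with changes of -1.47 in MDA435 and -0.63 in MDA231. The list median was -0.40 without MDA231 pseudopod replicate 3 alone and -0.12 without MDA231 cell body replicate 2 alone. Without the MDA231 arrays with high CDH1 together it was -0.22.

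RNAs of cytosolic and mitochondrial machinery had median changes above 0 in both lines and median line differences near 0. Cytosolic ribosomal proteins had median changes of 0.15 in MDA435 and 0.28 in MDA231, and 48 of 51 members were lower in MDA435 by a median of 0.12. Their line differences ran from -0.31 (RPS23, a small subunit protein) to 0.18. These genes move as a block between arrays, the mean level of the list being 11.70, 11.90 and 11.60 in MDA435 pseudopods, against 11.60, 11.35 and 11.77 in MDA435 cell bodies, and 11.60, 11.87 and 11.75 in MDA231 pseudopods, against 11.33, 11.55 and 11.51 in MDA231 cell bodies. The fractions overlapped in MDA435 and lay apart in MDA231. With array weights the list median was 0.038, so its direction turned.

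Mitochondrial ribosomal proteins had median changes of 0.35 in MDA435 and 0.32 in MDA231, with 48 of 74 higher in MDA435. MRPL19, a large subunit protein, had the largest difference (0.42 ± 0.54, SE) and followed CDH1 between replicates (r = 0.920). Its values were 1456, 1309.5 and 1113 in MDA435 pseudopods, against 577, 752 and 1011 in MDA435 cell bodies, and 854, 831 and 1636 in MDA231 pseudopods, against 545, 1572 and 677 in MDA231 cell bodies. Of 2 dimmer MRPL19 probe sets 1 gave a line difference of 0.42 and 1 gave -0.46, the opposite sign. Nuclear-encoded respiratory chain genes had median changes of 0.28 in MDA435 and 0.30 in MDA231, and for 67 of 70 members the 95% interval of the line difference lay within 2-fold. UQCRB, a complex III subunit, was higher in pseudopods of both lines without overlap, with changes of 0.70 in MDA435 and 0.34 in MDA231. Of the mitochondrially encoded transcripts 7 were members, with a median line difference of -0.079 and 4 of 7 lower in MDA435. COX3, a subunit of cytochrome oxidase, had the largest difference, of the other sign. It was at 854, 1008 and 1168 in MDA435 pseudopods, against 1288, 988 and 1485 in MDA435 cell bodies, and 605, 768 and 979.6 in MDA231 pseudopods, against 1156, 1666 and 1268 in MDA231 cell bodies. COX3 overlapped in MDA435 and was lower in MDA231 pseudopods, a line difference of 0.50 ± 0.32 (SE). Translation factors (median line difference -0.029, 42 members), proteasome genes (-0.046, 35) and cytosolic chaperones (-0.063, 26) also lay near 0. In these lists the largest differences were those of EIF1AX, an initiation factor (0.33), PSME1, a proteasome activator subunit (0.49), and DNAJB4, an HSP40 co-chaperone (0.28). On dimmer probe sets EIF1AX gave 0.13 to 0.17 and DNAJB4 gave 0.13.

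Cytoskeletal genes showed the same small differences. Arp2/3 and other nucleators of actin had median changes of 0.18 in MDA435 and 0.21 in MDA231, and actin filament and myosin genes 0.18 in MDA435 and 0.26 in MDA231. DIAPH1, a formin, was at 682, 448 and 762 in MDA435 pseudopods, against 831, 959 and 1089 in MDA435 cell bodies, and 912, 880.3 and 956 in MDA231 pseudopods, against 806, 1099.9 and 935 in MDA231 cell bodies. DIAPH1 lay lower without overlap in MDA435 pseudopods and overlapped in MDA231 (line difference -0.58 ± 0.29, SE), while its 2 other probe sets gave -0.068 and 0.43. SPTAN1, the alpha chain of non-erythroid spectrin, had changes of -1.20 in MDA435 and -0.36 in MDA231, and its line difference of -0.84 was -0.27 on a second probe set. ACTN1 and ACTN4, actinins that crosslink actin at adhesions, were the leading cytoplasmic adhesion genes. ACTN1 had 1792, 1517 and 2078 in MDA435 pseudopods, against 2495, 2008 and 2762 in MDA435 cell bodies, and 2963, 3365 and 2810.2 in MDA231 pseudopods, against 2371, 2726 and 3136 in MDA231 cell bodies, with overlap in both lines (line difference -0.58 ± 0.25, SE; unadjusted p = 0.0422, limma). ACTN4 had a line difference of -0.60 ± 0.37 and followed CDH1 in MDA435 (r = 0.919) while it went against CDH1 in MDA231 (r = -0.882). CLIP1, a microtubule plus-end protein, led the microtubule list with changes of -0.91 in MDA435 and -0.45 in MDA231. Its line difference was -0.47, and 2 other probe sets gave -0.86 and -0.32. The list of S100 proteins, annexins and AHNAK proteins had median changes of 0.21 in MDA435 and 0.24 in MDA231, led by the giant scaffold AHNAK2 with a line difference of -0.45 ± 0.68 (SE).

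RNAs described in other cells as localised to protrusions gave no call among 17 members, with median changes of 0.19 in MDA435 and 0.28 in MDA231. RAB13, a small GTPase whose RNA is carried to protrusions, was at 916, 1445 and 1221 intensity units in MDA435 pseudopods, against 762, 673 and 681 in MDA435 cell bodies, and 1589, 1635 and 1767 in MDA231 pseudopods, against 854, 643 and 906 in MDA231 cell bodies. RAB13 was higher in pseudopods of both lines without overlap, by 0.72 in MDA435 and 1.05 in MDA231. The line difference was -0.33 ± 0.27 (SE, 95% interval -0.91 to 0.26), and array weights turned it to 0.032. NET1, a guanine nucleotide exchange factor for RhoA, was at 964, 1266 and 1473 in MDA435 pseudopods, against 521, 741 and 986 in MDA435 cell bodies, and 2846, 2388 and 1874 in MDA231 pseudopods, against 2022, 1291 and 1961 in MDA231 cell bodies. Its fractions overlapped in MDA435 by 1 pair of arrays and in MDA231 through pseudopod replicate 3, and the changes were 0.73 in MDA435 and 0.43 in MDA231. The NET1 difference was -0.071 without the MDA435 arrays with low CDH1. KANK2, an adhesion scaffold, had the largest difference of the list (-0.47 ± 0.66, SE), and it followed CDH1 inversely (r = -0.887), with 1663, 1646 and 592 in MDA231 pseudopods and 1555, 462 and 1353 in MDA231 cell bodies.

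Genes of the nucleus and of growth also gave no call. RNA45SN5, the ribosomal RNA precursor, which stays in the nucleolus, was at 5.6, 11.5 and 28.9 intensity units in MDA435 pseudopods, against 191, 171 and 199 in MDA435 cell bodies, and 15, 61.9 and 36.5 in MDA231 pseudopods, against 759.6, 356 and 956 in MDA231 cell bodies. Its MDA435 pseudopod mean of 15.3 lies below the dim limit of 25.6, where the pseudocount bounds the change. The line difference was 0.94 as fitted, 0.45 with a pseudocount of 1 and 1.14 with 50, so no size is read from it. MALAT1, a nuclear long non-coding RNA, had changes of -1.01 in MDA435 and -0.95 in MDA231, and its line difference of -0.06 turned to 0.38 without the MDA231 arrays with high CDH1. Its 9 other probe sets that were not dim gave -0.33 to 0.25. Mitosis and kinetochore genes had median changes of 0.002 in MDA435 and 0.16 in MDA231, with 37 of 46 lower in MDA435. CENPF, a large kinetochore protein, was at 373, 372 and 546 in MDA435 pseudopods, against 1074, 695 and 729 in MDA435 cell bodies, and 423, 471 and 469.6 in MDA231 pseudopods, against 558, 486 and 717 in MDA231 cell bodies. CENPF was lower in pseudopods of both lines without overlap, and a second probe set gave a line difference of -0.52, against -0.58. DNA replication genes (0.0054, 42 members), splicing factors (-0.015, 55) and core histones (-0.033, 9) had median line differences near 0, led by ORC6, an origin recognition subunit (0.50), LSM6 (0.58) and H2AX, a histone of the DNA damage response (-0.51, with -0.0038 and 0.25 on 2 dimmer probe sets).

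Immediate early genes had a median line difference of -0.058 (25 members) and RAS and MAP kinase genes one of 0.0046 (21 members), led by the AP-1 factor JUNB (0.44) and the kinase ARAF (0.28). JUNB was higher in MDA435 pseudopods without overlap (142, 146 and 134, against 103, 95.6 and 123 in cell bodies). Glycolysis and hypoxia genes had median changes of 0.11 in MDA435 and 0.23 in MDA231, with 21 of 28 lower in MDA435. VEGFA, a secreted angiogenic factor of that list, was at 382, 207 and 327 in MDA435 pseudopods, against 488, 612 and 665 in MDA435 cell bodies, and 2142, 2131 and 1007 in MDA231 pseudopods, against 2226, 1779.9 and 2728 in MDA231 cell bodies. VEGFA lay lower without overlap in MDA435 pseudopods and overlapped in MDA231, where the array with high CDH1 was the lowest of each fraction. Its line difference was -0.53 ± 0.44 (SE), and its 3 other probe sets gave -0.19 to 0.66.

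Abundant RNAs often used as references had small changes in both lines. ACTB, cytoplasmic actin, had changes of -0.036 in MDA435 and 0.28 in MDA231, GAPDH, a glycolytic enzyme, had 0.11 in MDA435 and 0.26 in MDA231 and VIM, the filament protein vimentin, had 0.076 in MDA435 and 0.27 in MDA231. All 3 changes were lower in MDA435, by 0.32, 0.16 and 0.19, with unadjusted p-values of 0.254, 0.539 and 0.417 (limma), and GAPDH turned to 0.044 with array weights. AHNAK, whose long RNA was low in pseudopods, had 318, 353 and 432 in MDA435 pseudopods, against 1323, 856 and 1015 in MDA435 cell bodies, and 977, 576 and 479 in MDA231 pseudopods, against 2365, 1038 and 1910.4 in MDA231 cell bodies. Both lines lay apart, with changes of -1.48 in MDA435 and -1.35 in MDA231. The AHNAK difference of -0.13 was near 0 without the MDA231 arrays with high CDH1 (0.00039), and a second probe set gave 0.16.

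**Figure D4:**
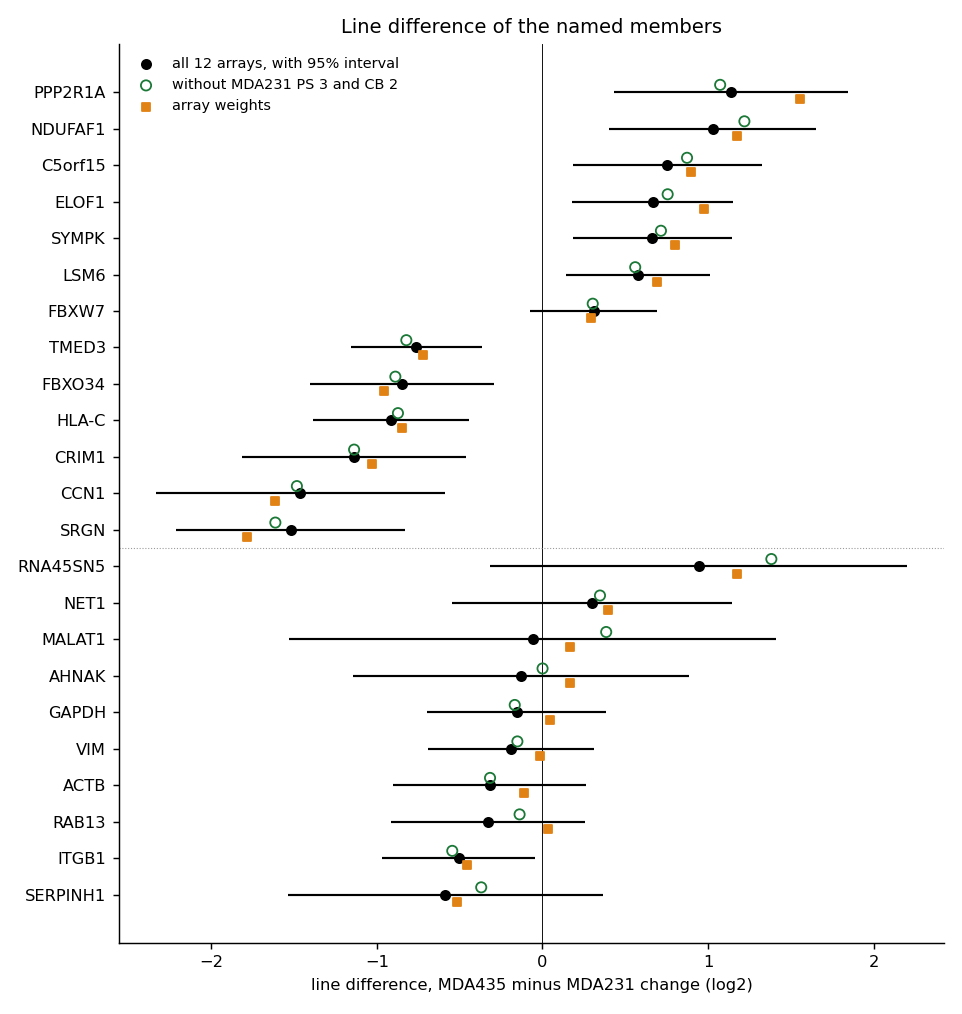
Line difference (MDA435 change minus MDA231 change, log2 scale) of the 12 leading members and FBXW7 above the dotted line and of 10 members fixed by name below it. Black points and lines give the estimate from 12 arrays with its 95% interval, green rings the estimate without MDA231 pseudopod replicate 3 and cell body replicate 2, and orange squares the estimate with array weights; the 12 leading estimates keep their sign in all 3, and those of RAB13, GAPDH, MALAT1 and AHNAK do not.

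Many members varied with CDH1 between replicates, and the intervals of their line differences were wider. A member was marked where the correlation of its deviations from the group means with those of CDH1 had a size of at least 0.7 over the 12 arrays or at least 0.9 over the 6 arrays of 1 line. The marks fell on 3896 members (47.4%, against 45.6% of all tested genes). Of the members, 1205 had r of 0.7 or more over both lines and 1441 had -0.7 or less; 1445 passed 0.9 in MDA435, 2285 in MDA231 and 555 in both, 451 of them with the same sign. Marked members had a median interval half-width of 0.772, against 0.571 in the other 4330. The whole interval lay within 2-fold for 56.9% of marked members and 81.7% of the others, and 24 marked members (0.616%) and 56 others (1.29%) had an unadjusted p under 0.05. Of the 12 leading members CRIM1, FBXO34 and SYMPK carried the mark.

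The members that followed CDH1 most closely were TMEM200A, PLAGL1, ABCB1, SLC16A14, GSTO2 and SLC27A2. In MDA231 they met the cell body minimum through replicate 2 alone. ABCB1, the drug efflux pump P-glycoprotein, was at 879, 321 and 20.1 intensity units in MDA435 pseudopods, against 23.7, 410.1 and 1259 in MDA435 cell bodies, and 5.2, 13.1 and 934 in MDA231 pseudopods, against 3.5, 1370.3 and 5.9 in MDA231 cell bodies, and reached at most 39.1 in any array of the 4 lines not compared here. ABCB1 was thus at most 23.7 in the 6 arrays with low CDH1 and at least 321 in the 6 with high CDH1 (r = 0.996 over 12 arrays). SLC16A14, a member of the monocarboxylate transporter family, was at 291, 135 and 7.5 in MDA435 pseudopods, against 13.7, 199 and 368 in MDA435 cell bodies, and 18.2, 21.3 and 469.8 in MDA231 pseudopods, against 36.9, 717 and 44.7 in MDA231 cell bodies (r = 0.996). It reached at most 64.5 in the other 4 lines. TMEM200A, a membrane protein, had 961, 436 and 24.6 in MDA435 pseudopods, against 19.4, 584 and 1142 in MDA435 cell bodies, and 6.7, 11.5 and 1255 in MDA231 pseudopods, against 10.0, 1637 and 3.5 in MDA231 cell bodies (r = 0.998), and PLAGL1, an imprinted zinc finger factor, had 397, 190.1 and 12.2 in MDA435 pseudopods, against 7.2, 154 and 295 in MDA435 cell bodies, and 8.1, 8.2 and 389 in MDA231 pseudopods, against 7.6, 381 and 8.5 in MDA231 cell bodies (r = 0.997). Unlike ABCB1, TMEM200A reached 2608 and PLAGL1 782 in the other lines. GSTO2, an omega class glutathione transferase, and SLC27A2, an acyl-CoA synthetase for very long chain fatty acids, had r of 0.995 and 0.995. The line differences of the 6 genes had standard errors of 1.498 to 2.95, too wide to compare their changes between the lines.

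The members that went against CDH1 most closely were CDK19, ZNF362, ZNF532, SPRED2, SETD7 and SWAP70, with r from -0.980 to -0.976. CDK19, a kinase of the Mediator complex, was at 533, 534 and 832 in MDA435 pseudopods, against 776, 559 and 500.2 in MDA435 cell bodies, and 379, 338 and 241 in MDA231 pseudopods, against 316, 198 and 297 in MDA231 cell bodies. Its low and high arrays were the reverse of those of CDH1 in each line, with a smaller span. ZNF362, a zinc finger protein, was at 283, 334 and 579 in MDA435 pseudopods, against 521, 375 and 273 in MDA435 cell bodies, and 417, 402 and 156 in MDA231 pseudopods, against 359.9, 126 and 326 in MDA231 cell bodies, and SWAP70, an actin-binding signalling protein, at 922, 1168 and 1564 in MDA435 pseudopods, against 1137, 894 and 814 in MDA435 cell bodies, and 1050.4, 1097 and 680.1 in MDA231 pseudopods, against 810.5, 516 and 834 in MDA231 cell bodies. SPRED2, an inhibitor of RAS signalling, and SETD7, a lysine methyltransferase, had line differences of -0.0042 and 0.072, and ZNF532, another zinc finger protein, of 0.039.

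**Figure D5:**
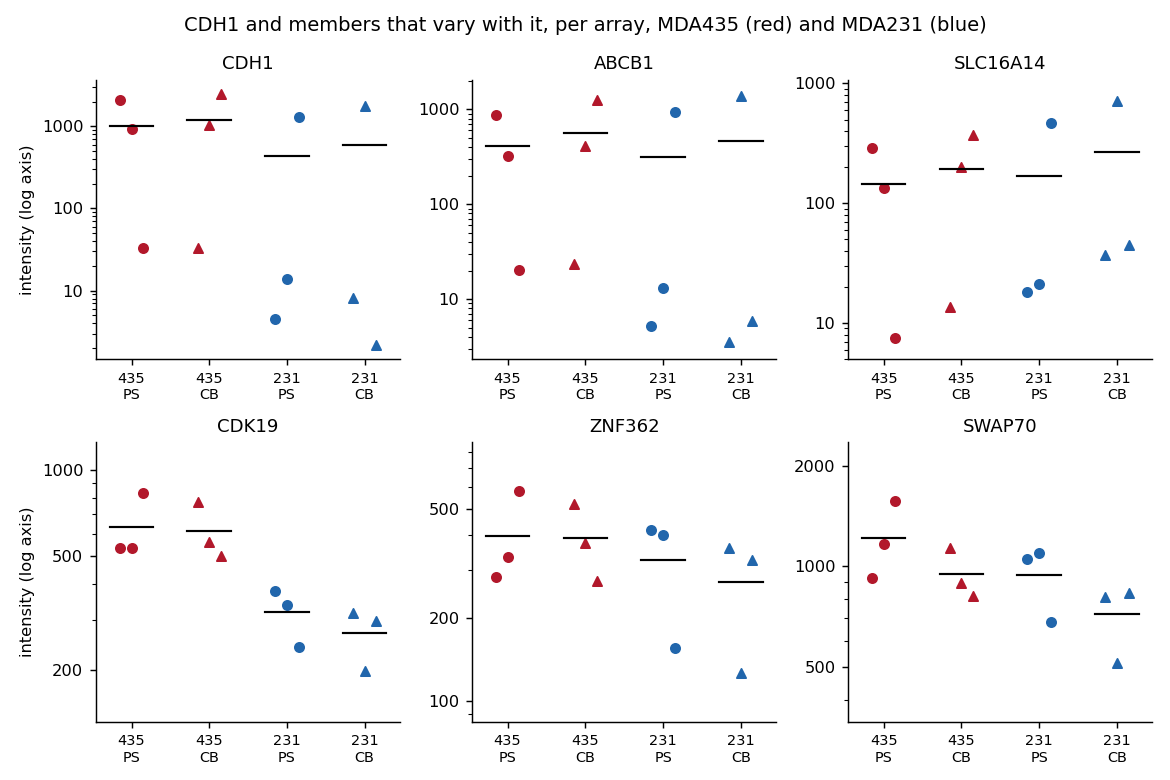
Intensity per array on a log axis of CDH1, of ABCB1 and SLC16A14, which follow it, and of CDK19, ZNF362 and SWAP70, which go against it, with MDA435 in red, MDA231 in blue, circles for pseudopods (PS), triangles for cell bodies (CB), replicates 1 to 3 from left to right and bars for means. The arrays with low CDH1 (MDA435 pseudopod replicate 3 and cell body replicate 1, and 4 MDA231 arrays) have low ABCB1 and SLC16A14 and, within each line and fraction, the highest CDK19, ZNF362 and SWAP70.

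Because these members move together, their promoter windows were searched for CAGGTG on either strand (CACCTG read on the other), the E-box to which the ZEB and SNAI repressors of epithelial genes bind. Among the 12 genes, 4 windows held a match, GSTO2, SLC27A2, ZNF532 and SWAP70. The 300-base windows of the 2 that follow CDH1 are shown because they are the ones with a match in that group, from RefSeq for GRCh38.p14, 5′ to 3′ on the gene's strand, with the matches in capitals. GSTO2 lies on the plus strand at chr10:104268934-104269233 and SLC27A2 on the plus strand at chr15:50181946-50182245. CDH1 itself was not analysed in this way.
GSTO2: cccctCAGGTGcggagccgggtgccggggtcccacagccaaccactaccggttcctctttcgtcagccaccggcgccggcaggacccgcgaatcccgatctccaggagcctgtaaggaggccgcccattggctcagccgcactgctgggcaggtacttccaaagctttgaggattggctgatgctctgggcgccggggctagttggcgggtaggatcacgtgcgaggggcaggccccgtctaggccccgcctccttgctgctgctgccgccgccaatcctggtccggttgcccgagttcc
SLC27A2: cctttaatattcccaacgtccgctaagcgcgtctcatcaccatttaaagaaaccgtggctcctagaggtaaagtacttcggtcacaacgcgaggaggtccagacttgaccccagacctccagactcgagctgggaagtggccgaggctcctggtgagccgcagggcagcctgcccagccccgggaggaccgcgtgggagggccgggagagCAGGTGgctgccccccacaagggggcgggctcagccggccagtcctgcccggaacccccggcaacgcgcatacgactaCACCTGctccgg
A match was found in 206 of the 995 members with r of 0.7 or more with CDH1 that have a window (20.7%), in 16.6% of the 6945 members with a window and in 20.6% of all 27305 windows. A match describes the letters of a window and nothing more.

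The level of the epithelial markers varied between arrays of 1 group, as that of CDH1 did. All 13 epithelial members carried the mark, which takes either sign: KRT19 had r of 0.995 with CDH1 in MDA435 and -0.882 in MDA231. Their mean log2 level was 9.86, 8.86 and 5.92 in MDA435 pseudopods and 5.71, 8.62 and 9.70 in MDA435 cell bodies, and 8.14, 8.08 and 10.00 in MDA231 pseudopods and 8.28, 10.06 and 8.05 in MDA231 cell bodies. Of the 24 measured epithelial markers the summed intensity ran from 1814 to 18843 over the MDA435 arrays and from 10120 to 20493 over the MDA231 arrays. EPCAM, an epithelial surface antigen, had a line difference of 0.70 ± 1.95 (SE), KRT18 of 0.082 ± 0.69, KRT19 of 0.16 ± 1.96 and CLDN7, a tight junction protein, of 0.80 ± 1.43. The sign of each of these 4 turned when 1 array was left out. CLDN7 was at 328, 105 and 8.3 in MDA435 pseudopods, against 8.1, 166 and 371 in MDA435 cell bodies, and 128, 141 and 243 in MDA231 pseudopods, against 444, 453 and 222 in MDA231 cell bodies. Its fractions overlapped in both lines, with changes of -0.25 in MDA435 and -1.04 in MDA231. The epithelial list median of 0.21 ran from -0.89 to 1.49 with 1 array left out. Melanocytic members had median changes of 0.12 in MDA435 and 0.11 in MDA231 (5 members), mesenchymal members 0.035 in MDA435 and 0.092 in MDA231 (7) and luminal breast and prostate members -0.13 in MDA435 and -0.027 in MDA231 (3, led by ERBB2 at -0.21 ± 0.41). The mean log2 level of the mesenchymal members was 9.05, 9.58 and 10.07 in MDA435 pseudopods and 10.28, 9.95 and 9.85 in MDA435 cell bodies, and 10.10, 10.01 and 9.37 in MDA231 pseudopods and 10.17, 9.48 and 10.09 in MDA231 cell bodies. That of the melanocytic members was 9.26, 9.71 and 10.04 in MDA435 pseudopods and 10.50, 10.27 and 9.98 in MDA435 cell bodies, and 8.14, 8.24 and 7.84 in MDA231 pseudopods and 8.354, 7.999 and 8.599 in MDA231 cell bodies. Both lists were highest, among MDA435 pseudopods, in replicate 3 and, among MDA435 cell bodies, in replicate 1, the arrays with low CDH1. SOX10, a transcription factor of the neural crest, had r of -0.974 with CDH1 in MDA435. The part of these marker levels in the line differences was not tested. No blood cell marker was a member.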

How the data were processed

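RNA of pseudopod and cell body fractions was hybridised to HG-U133 Plus 2.0 arrays, with 100 ng of total RNA an array per the labels. The deposited value table holds intensity on a linear scale for 54593 probe sets and 36 arrays. Of tools, Partek and RMA appear in the submitters' processing notes with no version, and no step that gives linear values is described there. The trimmed mean lay between 149.2 and 149.6 in every array, so the arrays had been scaled before deposit. The number of arrays limits the precision.

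Symbols came from GEO's platform annotation: 41074 probe sets had 1 symbol, 1798 several and 11721 none, and 41020 were brought to the current symbol through RefSeq (GRCh38.p14). Each gene was read from its probe set with the highest mean over 36 arrays. Genes dim in all 4 groups were left out, and log2(intensity + 16) of 14128 genes was fitted in limma 3.58.1 (R 4.3.3) with 4 group means, with no covariate and Benjamini-Hochberg adjustment over all tested genes; Python 3.11.15 made the summaries. The fit was tested on simulated data.

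Named genes are the 6 members with the largest moderated t in each direction (none passed), members lying apart in opposite directions, the largest difference of each list, the 6 closest to CDH1 in each direction, 16 genes fixed by name, and list members with an unadjusted p under 0.05. Members, lists and rules were chosen with earlier results of these data known. Protein sequences were not used here.

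Alternatives changed the pseudocount, scaling, probe set choice, filters, cell body minimum, arrays in the fit, weights, CDH1 covariate and replicate block.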

Additional observations from a re-analysis of the deposited data

Results flagged for a closer look

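FBXW7 is listed because its pseudopod arrays lay wholly above the cell body arrays in MDA435 and wholly below them in MDA231. Its line difference was 0.31 on the log2 scale, with an unadjusted p of 0.105 and an adjusted p of 0.9999 (limma), so the test of the difference itself was not passed. Over all tested genes 12 (0.0849%) lay apart in opposite directions, and FBXW7 was the one that was a member.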

How the results depend on the processing

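With 3 arrays a group, the median interval half-width of 0.650 leaves differences below about 1.5-fold unresolved for most members. A call at an adjusted p under 0.05 needs larger differences. In the simulated data, with noise drawn apart for each gene, 1 of 50 members with a true 1.5-fold difference was called. At 2-fold 6 of 50 were called, and at 4-fold 43 of 50. These rates cannot be carried over to the arrays, where 1 shared component held 60.5% of the variance that the groups leave. In the simulation 4.98% of genes with no difference had an unadjusted p under 0.05 (limma). The arrays gave 2.29% of all tested genes and 0.973% of members, so the fit called fewer genes on them than independent noise would give. Over 31 alternatives, 12 of them leaving out 1 array and 1 added after seeing the data, 0 members were called higher or lower in MDA435, except for 1 higher with all 36 arrays in the fit and 2 higher and 1 lower with array weights. These were NDUFAF1 in both settings, ELOF1 and SRGN. The array weights lean on few arrays, most on MDA231 cell body replicate 3 (weight 5.42), so results with them rest largely on those arrays. Over all tested genes the same settings called 1 higher and 19 lower, and 10 higher and 29 lower, CDH1 as a covariate in each line called 2 higher and 29 lower, and 8, 4 and 1 were lower without MDA435 pseudopod replicate 3, the MDA435 arrays with low CDH1 and both pairs of CDH1 arrays. Members with an unadjusted p under 0.05 numbered 80, against 499 with array weights, 188 with CDH1 as a covariate, 291 with CDH1 as a covariate in each line, 131 without both pairs of CDH1 arrays and 52 (of 5716 members left) without probe sets that the array design names as able to match several transcripts (_s_at and _x_at). Replicate numbers did not pair the fractions: pseudopod and cell body arrays of the same number had r of -0.75, 0.38 and -0.85 in MDA435 and 0.76, -0.64 and -0.70 in MDA231. With the replicate block 0 members were called and 54 had an unadjusted p under 0.05. That block joins arrays by these numbers, mostly unlike ones, so its 0 calls carry little information.

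Of 56 gene differences, those of the leading members, FBXW7, the largest of each list and the members fixed by name, 43 kept their sign throughout. The sign turned with array weights for RAB13 (0.032), GAPDH (0.044), MALAT1 (0.17) and AHNAK (0.16). Without the MDA231 arrays with high CDH1 it turned for MALAT1 (0.38) and AHNAK (0.0004), without the MDA435 arrays with low CDH1 for NET1 (-0.071) and MALAT1 (0.12), and without both for NET1 (-0.022), MALAT1 (0.57) and AHNAK (0.049). MALAT1 also turned with quantile normalization (0.074) and without the _s_at and _x_at probe sets (0.25), and AHNAK with the mean of all probe sets (0.16). With 1 array left out the difference ran from -0.38 to 0.21 for AHNAK, -2.28 to 1.77 for CDH1, -0.36 to 1.82 for CLDN7, -0.68 to 1.97 for EPCAM, -0.58 to 0.066 for ERBB2, -0.95 to 0.070 for KANK2, -0.43 to 0.58 for KRT18, -1.31 to 1.87 for KRT19, -0.63 to 0.33 for MALAT1 and -0.031 to 0.73 for MRPL19. Genes named for other reasons were outside this count, and some of them turned too. Over the alternatives MCAM ran from -1.40 to 0.13, ABCB1 from -2.35 to 1.43 and SWAP70 from -0.26 to 0.17. The MCAM value of 0.13 is that of its second probe set, which is dim. With 1 array left out MCAM stayed between -1.40 and -0.86. The cause of the other turns was not tested. Of 34 list medians 4 moved beyond their spread: lysosome and V-ATPase genes (-0.091 without both pairs), mitochondrially encoded genes (0.21) and nuclear RNAs (0.36) without the _s_at and _x_at probe sets, and luminal breast and prostate markers (0.24 without both pairs).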
